A study of Mus musculus with 36 samples.

Results

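The serum amyloid genes Saa1, Saa2 and Saa3, the lipocalin gene Lcn2 and the serpin genes Serpina3f, Serpina3g, Serpina3m and Serpina3n were followed through RNA sequencing of mouse embryo intestines and fibroblasts. They are 8 of the 52636 genes listed for each library. The genes were chosen by family, with earlier results of these data known, and which of their values bore on the choice is not recorded. Their folds are therefore given as a description, with no p-value, beside the share of all genes tested that passed the same thresholds.

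Intestines came from E18.5 embryos, with 3 embryos to a genotype. In the D387A set the genotypes were Mlkl-/- (the control), Casp8 D387A with Mlkl intact, Casp8 D387A Cflar-/- Mlkl-/-, and the last of these with Casp1-/-, with Casp1-/- Ifnar1-/- or with Casp1-/- Fadd-/-. In the C362A set they were Mlkl-/- (a second control group), Casp8 C362A Mlkl-/-, Casp8 C362A Mlkl-/- Casp1-/- and Casp8 C362A Cflar-/- Mlkl-/-. Mouse embryonic fibroblasts (MEFs) were Mlkl-/- or Casp8 D387A Cflar-/- Mlkl-/-, with 3 cultures each and no treatment. Every group but the D387A embryos with intact Mlkl thus lacked Mlkl, the controls included, and no group was wild type. D387A removes the site at which caspase-8 is cut between its catalytic subunits, C362A replaces its catalytic cysteine, Cflar encodes the caspase-8 partner cFLIP, Mlkl encodes the effector of necroptosis, Casp1 encodes the inflammatory caspase-1, Ifnar1 encodes a chain of the type I interferon receptor and Fadd encodes an adaptor that recruits caspase-8. All alleles were carried in every tissue of the embryo, and the Cflar deletions of the D387A and C362A lines were made separately. The comparisons ask how the 2 caspase-8 mutants differ from their controls, and what the further loss of caspase-1, of type I interferon signaling or of FADD changes.

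The acute phase response is the change in secreted proteins that follows infection or injury. IL-1, TNF and IL-6 reach liver and barrier tissues and act through NF-kB, C/EBP and STAT3 on genes of serum amyloid A, lipocalin-2 and serpins. Saa1 and Saa2 encode the circulating serum amyloids carried on high-density lipoprotein and are known best from liver, whereas Saa3 is known from macrophages, fat and gut epithelium. Lcn2 encodes a protein that binds bacterial siderophores and so withholds iron, and it is made by epithelia and stored in neutrophil granules. The Serpina3 genes are the mouse relatives of human SERPINA3 (alpha-1-antichymotrypsin). Serpina3g encodes an inhibitor of cathepsins that is known as an NF-kB target, and Serpina3n encodes an inhibitor of granzyme B and neutrophil elastase.

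On GRCm38, the serum amyloid genes lie side by side on chromosome 7, with Saa3 at chr7:46711998-46715700 and Saa1 at chr7:46740497-46742980 on the minus strand and Saa2 at chr7:46751790-46754313 on the plus strand. Lcn2 lies on the minus strand at chr2:32384633-32388252. The serpins lie on the plus strand of chromosome 12, with Serpina3f at chr12:104214544-104221129, Serpina3g at chr12:104236245-104241939, Serpina3m at chr12:104338486-104394257 and Serpina3n at chr12:104406729-104414329. Close copies limit what a read of 50 bases can tell. Of the distinct stretches of 50 bases in the transcripts, 14.8% in Saa1 (13.2% with Saa2), 15.9% in Serpina3g (9.1% with Serpina3h), 10.6% in Serpina3f, 6.9% in Serpina3n, 4.2% in Saa3 and 0.0% in Lcn2 also occurred in another gene, so that reads from those stretches could not be assigned.

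The promoters of 4 members are shown, those of Saa3, of Lcn2 and of Serpina3g and Serpina3n, the serpins that kept the largest and the smallest share of their level without Casp1, because factors known to act on acute phase genes bind short motifs in such windows. Each window runs from 250 bases before to 50 bases after the RefSeq gene start (GRCm38.p6, 5′ to 3′ on the strand of the gene), and capitals mark matches to GGNNTTTCC (an NF-kB motif) or TTNNGNAA (a C/EBP motif) on either strand. The windows are Saa3 at chr7:46715627-46715926 (minus strand), Lcn2 at chr2:32387690-32387989 (minus strand), Serpina3g at chr12:104235897-104236196 (plus strand) and Serpina3n at chr12:104406458-104406757 (plus strand).
Saa3: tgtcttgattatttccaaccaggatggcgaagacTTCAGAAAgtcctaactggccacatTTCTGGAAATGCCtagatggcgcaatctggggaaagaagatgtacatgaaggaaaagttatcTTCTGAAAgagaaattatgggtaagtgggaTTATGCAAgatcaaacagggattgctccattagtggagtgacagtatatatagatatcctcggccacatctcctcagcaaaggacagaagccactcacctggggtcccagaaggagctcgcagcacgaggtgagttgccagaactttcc
Lcn2: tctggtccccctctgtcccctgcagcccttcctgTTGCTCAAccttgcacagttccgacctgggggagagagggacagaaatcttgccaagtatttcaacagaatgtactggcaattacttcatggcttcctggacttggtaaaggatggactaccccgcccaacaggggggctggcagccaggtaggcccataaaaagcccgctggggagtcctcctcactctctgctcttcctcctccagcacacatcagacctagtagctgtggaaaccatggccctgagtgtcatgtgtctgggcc
Serpina3g: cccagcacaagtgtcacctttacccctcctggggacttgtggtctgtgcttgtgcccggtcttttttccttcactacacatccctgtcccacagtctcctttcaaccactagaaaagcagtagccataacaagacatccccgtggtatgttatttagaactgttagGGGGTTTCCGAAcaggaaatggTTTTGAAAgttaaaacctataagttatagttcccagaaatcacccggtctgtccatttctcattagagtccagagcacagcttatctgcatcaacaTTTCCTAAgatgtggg
Serpina3n: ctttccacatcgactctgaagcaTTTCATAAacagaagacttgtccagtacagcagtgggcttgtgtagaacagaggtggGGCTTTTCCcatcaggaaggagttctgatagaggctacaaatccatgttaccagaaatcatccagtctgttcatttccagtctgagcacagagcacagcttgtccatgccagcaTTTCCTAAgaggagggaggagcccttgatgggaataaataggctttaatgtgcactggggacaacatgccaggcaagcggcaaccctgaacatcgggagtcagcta
The NF-kB letters occurred in Saa3 (first base at -187, on the opposite strand), Serpina3g (-84) and Serpina3n (-170), and in 5.8% of 32851 promoter windows of the same length. In Saa3 and Serpina3g the NF-kB match overlapped a C/EBP match. The C/EBP letters occurred 4 times in Saa3, 3 times in Serpina3g, 2 times in Serpina3n and once in Lcn2 (at -216), and in 40.7% of all windows. Lcn2 and the windows of Saa1, Saa2 and Serpina3f held no match to the NF-kB letters. The STAT letters TTCNNNGAA were found in Serpina3f and Serpina3g (8.3% of windows), and the letters GAAANNGAA of interferon response elements in Saa3 and Serpina3f (8.6% of windows). A match describes these letters only, and no window of Serpina3m was at hand.

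Libraries held 17943524 to 27721024 reads on genes in the D387A set, 21757868 to 31052238 in the C362A set and 20927014 to 32307629 in the MEFs. Levels are given in counts-per-million values (CPM) scaled by TMM within each set, so that values of different sets were normalized separately. A level of 3 reads, taken as the floor of detection, was 0.116 to 0.184 CPM in the D387A set, 0.103 to 0.131 CPM in the C362A set and 0.0929 to 0.142 CPM in the MEFs. The targeted genes followed the labels where their reads could show it. Mean Casp1 was at most 0.155 CPM in the Casp1-/- groups of the D387A set, against 46.3 CPM or more with Casp1 there. Fadd was at 0.822 CPM in its knockout and Ifnar1 at 35.1 CPM, against at least 38.9 and 80.7 CPM in the other D387A groups. Cflar and Mlkl reads persisted in their knockouts, so these deletions could not be checked from gene counts. Markers of epithelium made up at least 3591 CPM in every intestine library, and in the MEFs Cdx2 and Fabp2 had no read while fibroblast markers summed to at least 21370 CPM. The third D387A Cflar-/- Mlkl-/- Casp1-/- embryo stood apart from its group in several members, with 46.0 CPM of Mlkl against a lowest value of 6.27 CPM in its group. Mlkl was at 45.8 to 55.8 CPM in the libraries that also lacked Ifnar1 and 55.3 to 62.5 CPM in those that also lacked Fadd. The comparisons for loss of Ifnar1 and of Fadd thus differ in Mlkl reads too, and the cause was not tested. Log2 differences of the members that involve its group within the D387A set are given with and without it.

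Among the serum amyloids, Saa3 had the largest difference between mutant and control intestines in the D387A set. In the Mlkl-/- controls the 3 libraries had 1.01, 0.630 and 0.500 CPM. In D387A Cflar-/- Mlkl-/- intestines they had 427, 271 and 313 CPM. All mutant libraries thus lay far above all controls, and the difference was 8.87 ± 0.62 (SE) on the log2 scale, or 469-fold. D387A embryos with intact Mlkl and Cflar had 1.22, 0.960 and 1.05 CPM, which overlapped the controls (log2 difference 0.57 ± 0.85). In the C362A set the controls had 0.441, 0.378 and 0.653 CPM and the C362A Mlkl-/- intestines 138, 147 and 126 CPM. Again no mutant library came near a control, and the log2 difference was 8.14 ± 0.29. The C362A Cflar-/- Mlkl-/- libraries had 203, 236 and 159 CPM, with a log2 difference of 8.68 ± 0.30 from the controls.

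Saa1 was detected in controls and had the largest standard errors of the members tested in the D387A set. The controls had 5.09, 0.0525 and 4.55 CPM, the second of these resting on 1 read. The D387A Cflar-/- Mlkl-/- libraries had 30.4, 39.4 and 4.79 CPM. The third mutant embryo was therefore within the range of the controls, and the log2 difference of 2.93 ± 0.98 was no longer called without the second control (2.37) or the second mutant (2.43), nor by limma-voom (3.79). The separation was complete in the C362A set, with 0.919, 3.34 and 5.53 CPM in controls, 19.8, 18.3 and 17.95 CPM in C362A Mlkl-/- and 38.9, 33.4 and 16.3 CPM in C362A Cflar-/- Mlkl-/-. The log2 differences were 2.53 ± 0.55 and 3.19 ± 0.56. In D387A embryos with intact Mlkl, Saa1 was at 9.24, 6.68 and 5.23 CPM (151, 160 and 135 reads), all above the controls, though the lowest was close to the highest control. The log2 difference of 1.1 ± 1.01 was not called, became 0.53 without the second control and reached 2.4 with limma-voom. Saa2 never exceeded 19 reads in a library and was not tested in the D387A set, where the highest count was 18 reads. It had in the C362A set 0, 0 and 4 reads in controls, 5, 7 and 11 in C362A Mlkl-/- and 19, 12 and 1 in C362A Cflar-/- Mlkl-/-. Its difference in the last of these (2.89 ± 1.01) was called, but not in 4 of the 6 fits that left out a library.

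**Figure D1:**
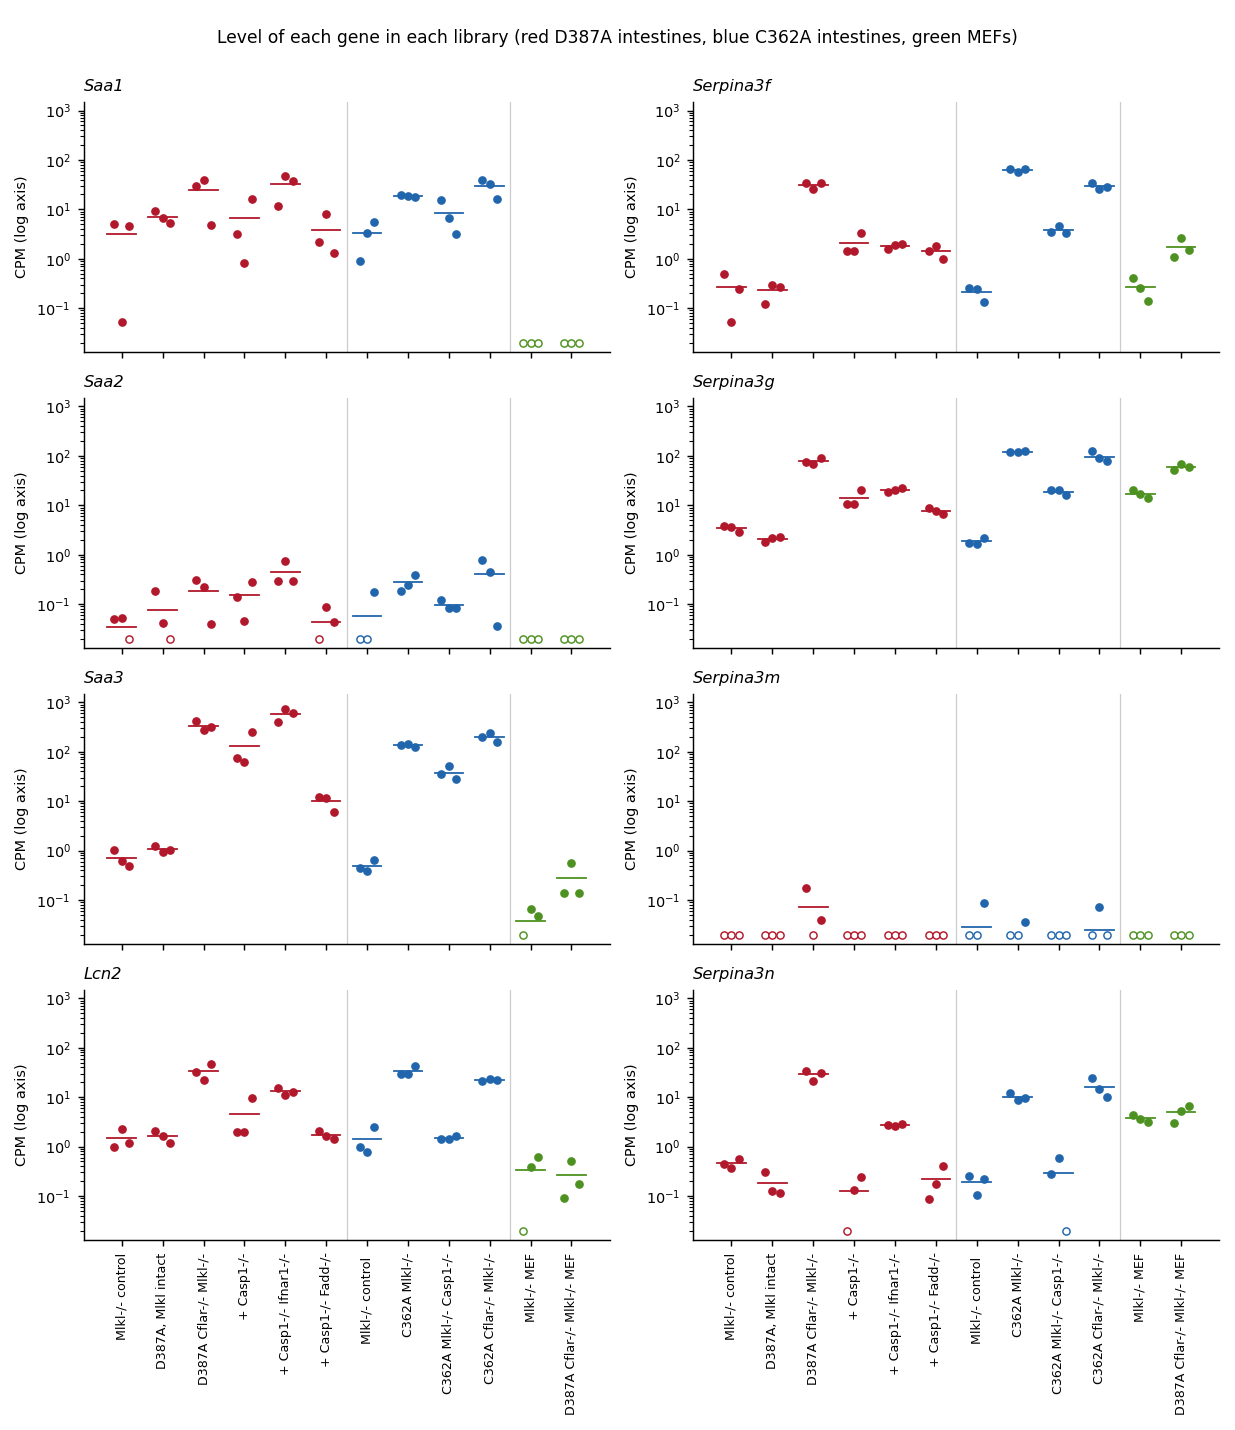
Level of each of the 8 genes in every library, in CPM on a log axis, with the mean of each genotype as a line and open circles at the foot for libraries with no read. Red marks the D387A intestines, blue the C362A intestines and green the MEFs, each normalized within its set. Among the intestines Saa3 spans from 0.378 CPM in a control to 724 CPM in a Casp1-/- Ifnar1-/- mutant, with no read in 1 MEF culture, and Serpina3m has at most 4 reads in any library.

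Lcn2 was low in both groups of controls and higher in both caspase-8 mutants. The controls of the D387A set had 0.957, 2.26 and 1.20 CPM, and the D387A Cflar-/- Mlkl-/- intestines 32.7, 22.4 and 46.8 CPM. The groups did not overlap, and the log2 difference was 4.53 ± 0.52. In the C362A set the controls had 0.993, 0.791 and 2.44 CPM, the C362A Mlkl-/- intestines 29.4, 29.2 and 43.0 CPM and the C362A Cflar-/- Mlkl-/- intestines 21.7, 23.6 and 22.5 CPM. The last group varied little, and the log2 differences were 4.62 ± 0.31 and 4.04 ± 0.31. With Mlkl and Cflar intact, D387A intestines had 2.02, 1.63 and 1.16 CPM, within the range of the controls (log2 difference 0.1 ± 0.60).

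Of the serpins, Serpina3f was close to the floor in controls and well above it in the mutants. Its control libraries in the D387A set had 0.504, 0.0525 and 0.250 CPM, and the D387A Cflar-/- Mlkl-/- libraries 34.4, 26.1 and 33.7 CPM. The log2 difference was 6.83 ± 0.40 without overlap. The difference was 8.15 ± 0.23 in the C362A set, from 0.257, 0.241 and 0.131 CPM to 64.6, 56.6 and 65.0 CPM. The C362A Cflar-/- Mlkl-/- libraries lay between, at 34.4, 25.6 and 28.8 CPM.

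Serpina3g had the highest level per kilobase of the 4 serpins in the controls (1.92 RPKM in the D387A set). It had 3.88, 3.62 and 2.90 CPM in the D387A set controls and 76.5, 68.0 and 89.8 CPM in D387A Cflar-/- Mlkl-/- intestines, a log2 difference of 4.49 ± 0.24. The C362A set had 1.76, 1.69 and 2.18 CPM in controls, 118, 118 and 128 CPM in C362A Mlkl-/- and 124, 88.7 and 78.5 CPM in C362A Cflar-/- Mlkl-/- intestines. The mutants again stood apart from all controls, with log2 differences of 6.02 ± 0.20 and 5.70 ± 0.20. D387A embryos with intact Mlkl had 1.77, 2.17 and 2.29 CPM, all below the controls of their set, and the log2 difference of -0.72 ± 0.27 did not pass the thresholds.

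Serpina3n had 0.453, 0.368 and 0.550 CPM in the D387A set controls (9, 7 and 11 reads) and 34.5, 21.4 and 31.0 CPM in D387A Cflar-/- Mlkl-/- intestines. The log2 difference was 5.96 ± 0.33. D387A embryos with intact Mlkl had 5, 3 and 3 reads of Serpina3n, fewer than any control, and the log2 difference of -1.42 ± 0.58 was not called. Levels in the C362A set were 0.257, 0.103 and 0.218 CPM in controls, 11.9, 8.61 and 9.72 CPM in C362A Mlkl-/- and 24.5, 14.6 and 9.97 CPM in C362A Cflar-/- Mlkl-/- intestines. No mutant library overlapped a control, and the log2 differences were 5.69 ± 0.56 and 6.39 ± 0.55. Serpina3m had 4, 0 and 1 reads in D387A Cflar-/- Mlkl-/- intestines, at most 2 reads in any other library, and was not tested in any set.

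A gene was called where edgeR's quasi-likelihood test gave an adjusted p under 0.05 and the log2 fold change exceeded 1 in either direction. In D387A Cflar-/- Mlkl-/- intestines all 6 members that had enough reads to be tested were called higher (5 by limma-voom, without Saa1), beside 9.40% of the 18360 genes tested, and their median log2 difference was 5.25 against -0.01 over all genes. In D387A intestines with intact Mlkl, none of the 6 was called by edgeR, limma-voom or DESeq2, beside 0.00545% of genes called in either direction by edgeR, and 2 of the 6 had an unadjusted p under 0.05. In C362A Mlkl-/- intestines 6 of 7 tested members were called higher (10.4% of 19408 genes), and in C362A Cflar-/- Mlkl-/- intestines 7 of 7 (13.4% of genes). Some tested members had few reads in controls and passed the filter through groups in which they were high. Serpina3f had 10, 1 and 5 reads in the D387A set controls and 7, 7 and 3 in those of the C362A set. Serpina3n had 9, 7 and 11 reads and 7, 3 and 5 reads there. The filter thus favoured calls as higher, and these counts and medians only describe the members that passed it. The control libraries are shared by the comparisons of each set. In RNA from whole tissue, fewer cells of a type and less RNA per cell cannot be told apart.

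**Figure D2:**
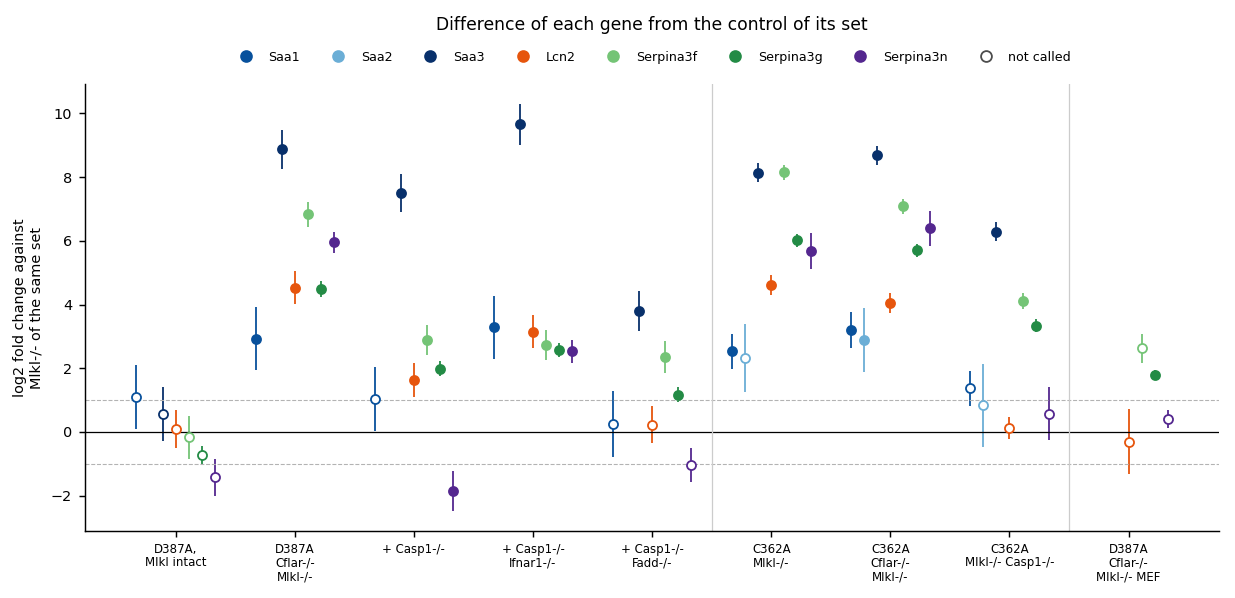
Log2 fold change of each tested member against the Mlkl-/- controls of its own set, with bars of 1 SE and filled circles for genes past the thresholds. The dashed lines mark log2 changes of 1 and -1. Saa3 has the highest point in each D387A Cflar-/- group, from 3.8 with Fadd-/- to 9.65 with Ifnar1-/-, and Serpina3n lies below 0 in D387A Cflar-/- Mlkl-/- Casp1-/- (-1.85) and above 0 where Ifnar1 was lost as well (2.54).

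Without Casp1 the members were lower to very different extents. In D387A Cflar-/- Mlkl-/- Casp1-/- intestines Saa3 still stood at 76.1, 62.0 and 252 CPM. Its mean was 38.6% of that with Casp1 (20.5% without the third embryo), and the log2 difference of -1.37 ± 0.39 became -2.29 without the third embryo. Fitted with these 2 groups only, it was not called (-1.38). Saa1 was at 3.18, 0.808 and 16.1 CPM, which overlapped the D387A Cflar-/- Mlkl-/- range (log2 difference -1.90 ± 0.91, not called, but called at -3.64 without the third embryo and at -2.39 without the third embryo that had Casp1). Lcn2 was at 2.00, 1.93 and 9.77 CPM, so that all 3 embryos were below all those with Casp1 while the third remained above the others. The log2 difference of Lcn2 was -2.90 ± 0.45, or -4.11 without that embryo.

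The serpins kept a smaller share of their level than Saa3. Serpina3g was at 10.5, 10.6 and 20.5 CPM without Casp1, or 17.7% of the mean with Casp1 (13.5% without the third embryo), with a log2 difference of -2.50 ± 0.20, or -2.89 without that embryo. Serpina3f was at 1.41, 1.44 and 3.33 CPM, or 6.56% (-3.93 ± 0.30, or 4.53% and -4.46 without the third embryo). Serpina3n was nearly absent, with 0, 3 and 5 reads, against 799, 478 and 776 reads with Casp1. That is 0.430% of the mean level and a log2 difference of -7.82 ± 0.39, or 0.233% and -8.62 without the third embryo. In all, 5 of 6 members were called lower without Casp1 (4.51% of genes), and 6 without the third embryo, with a median log2 difference of -2.70 against 0.03 over all genes.

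In the C362A set, C362A Mlkl-/- Casp1-/- intestines had 35.3, 50.6 and 28.2 CPM of Saa3, or 27.8% of the mean with Casp1, and the groups did not overlap (log2 difference -1.85 ± 0.19). Lcn2 was at 1.45, 1.41 and 1.63 CPM, inside the range of the controls, and kept 4.42% (-4.50 ± 0.31). Serpina3g at 20.2, 20.04 and 16.4 CPM kept 15.5% (-2.69 ± 0.16). Both remained below every library with Casp1, and Serpina3g still exceeded every control. Serpina3f at 3.53, 4.53 and 3.35 CPM kept 6.13% (-4.03 ± 0.17). Serpina3n at 7, 14 and 0 reads kept 2.86% (-5.11 ± 0.53). Saa1 at 15.2, 6.57 and 3.23 CPM kept 44.5%, or 26.2% without the first embryo, whereas the share of Saa3 was then 28.8%, so that which of the 2 kept more rested on that library. Saa1 had a log2 difference of -1.17 ± 0.52 that was not called, although limma-voom called it at -1.44, and so did edgeR without the first C362A Mlkl-/- Casp1-/- embryo (-1.94). Here too 5 members, of 7 tested, were called lower (5.72% of genes), with a median log2 difference of -2.69.

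**Figure D3:**
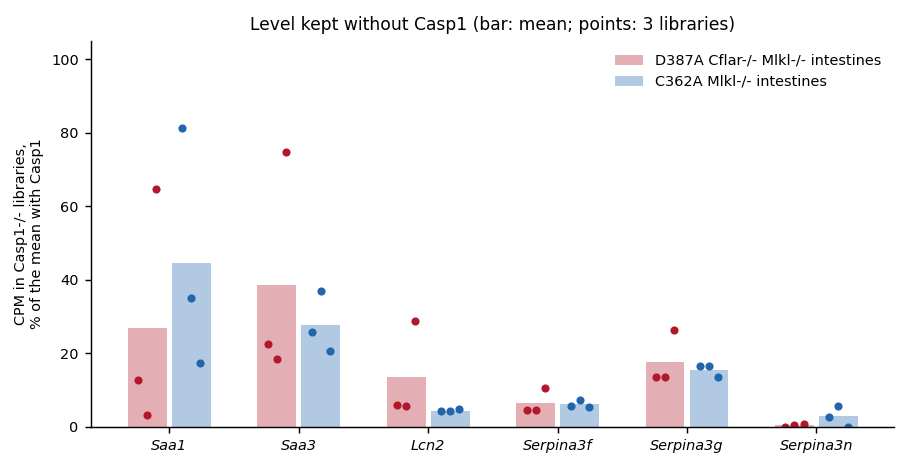
Level of 6 members in Casp1-/- intestines as a percentage of the mean level in the matching genotype with Casp1, with bars for the mean of 3 libraries and points for each library. Red marks D387A Cflar-/- Mlkl-/- and blue C362A Mlkl-/- intestines. Saa3 kept 38.6% (20.5% without the third D387A embryo) and 27.8%, and Serpina3n 0.430% (0.233% without that embryo) and 2.86%.

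Against the controls of their set, D387A Cflar-/- Mlkl-/- Casp1-/- intestines had 4 members called higher (2.16% of genes) and 1 called lower (2.18% of genes). Saa3 (log2 difference 7.5 ± 0.60), Serpina3f (2.89 ± 0.47) and Serpina3g (1.99 ± 0.23) lay above every control library. Without the third Casp1-/- embryo these differences were 6.59, 2.37 and 1.6, and all 3 were still called. Lcn2 (1.63 ± 0.54) rested on the third embryo, without which the difference was 0.42 and not called, and the call was also lost without the first control (1.39) or the third (1.5). Serpina3n lay below every control (-1.85 ± 0.62) at counts of 0 to 5 against 7 to 11 reads, and this call was lost under limma-voom and in 5 of the 6 fits that left out a library, the exception being that without the third Casp1-/- embryo (-2.66). In C362A Mlkl-/- Casp1-/- intestines Saa3 (6.29 ± 0.29), Serpina3f (4.12 ± 0.25) and Serpina3g (3.34 ± 0.19) were called higher than in controls (3 of 7, beside 6.79% of genes), whereas Lcn2 (0.13 ± 0.34) and Serpina3n (0.58 ± 0.82) were not. In both sets Saa3, Serpina3f and Serpina3g thus remained above all controls without Casp1.

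Embryos that also lacked Ifnar1 had more Saa3, Lcn2 and Serpina3n than those lacking Casp1 alone. Saa3 was at 396, 724 and 606 CPM, above every D387A Cflar-/- Mlkl-/- Casp1-/- library, and the log2 difference was 2.15 ± 0.40 (3.06 without the third Casp1-/- embryo). Lcn2 was at 15.4, 11.3 and 12.5 CPM (log2 difference 1.52 ± 0.45). Without the first or the second Casp1-/- embryo the Lcn2 difference was 1.16 or 1.15 and was not called, and without the third it was 2.73 and called. Serpina3n was at 2.67, 2.56 and 2.87 CPM, or 63, 63 and 68 reads. The Serpina3n libraries were close together and far from the 0 to 5 reads with Ifnar1 present, with a log2 difference of 4.40 ± 0.45 (5.2 without the third Casp1-/- embryo). Saa1 was at 11.96, 46.6 and 37.2 CPM, a log2 difference of 2.26 ± 0.92 that was not called. The Saa1 difference was called at 4.0 without the third Casp1-/- embryo and at 2.65 without the first Ifnar1-/- embryo. Limma-voom called it at 3.01. Serpina3f (1.57, 1.91 and 2.03 CPM) and Serpina3g (18.9, 20.8 and 22.1 CPM) overlapped the group with Ifnar1 through the third Casp1-/- embryo only, at log2 differences of -0.16 ± 0.33 and 0.57 ± 0.20. Without that embryo both groups were separate, with more of both serpins in the absence of Ifnar1, and the differences were 0.37 and 0.97, neither of them called. In all, 3 of 6 members were called higher (3.28% of genes), or 4 without the third Casp1-/- embryo. Fitted with these 2 groups only, the test called 1 of the 3. Against the Mlkl-/- controls, all 6 were called higher (6.76% of genes), with Saa3 at 9.65 ± 0.63 and Serpina3n at 2.54 ± 0.36 on the log2 scale. Markers of other cells differed between these groups too. Pancreatic acinar markers summed to 52.8 to 127 CPM without Ifnar1 and 2.82 to 4.38 CPM with it, with 4 of 5 tested rising. Neutrophil markers summed to 73.9 to 88.9 CPM against 16.9 to 73.1 CPM, with 1 of 9 rising and 1 falling, and macrophage markers to 704 to 810 CPM against 474 to 785 CPM. Their part in the result was not tested.

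Embryos that lacked Fadd in addition to Casp1 had little Saa3. The 3 libraries had 12.2, 11.6 and 6.01 CPM, below every D387A Cflar-/- Mlkl-/- Casp1-/- library, and the log2 difference was -3.70 ± 0.44 (-2.79 without the third Casp1-/- embryo). Saa3 was the 1 member of 6 called lower (0.877% of genes). Lcn2 at 2.04, 1.67 and 1.45 CPM was within the range of the controls, and its log2 difference from the group with Fadd, -1.40 ± 0.52, was -0.19 without the third Casp1-/- embryo and was called without the first (-1.76) or the second (-1.77). Serpina3f (1.42, 1.80 and 1.01 CPM) and Serpina3g (8.98, 7.78 and 6.58 CPM) differed from the group with Fadd by -0.54 ± 0.34 and -0.83 ± 0.21 (-0.01 and -0.44 without the third Casp1-/- embryo), and Serpina3n had 2, 4 and 9 reads. Saa1 was at 2.21, 8.04 and 1.32 CPM. Against the controls, Saa3 (3.8 ± 0.63), Serpina3f (2.35 ± 0.49) and Serpina3g (1.17 ± 0.24) were still called higher, 3 of 6 beside 2.81% of genes, and lay above all control libraries. Epithelial markers summed to 9832 to 10790 CPM without Fadd and 5880 to 7632 CPM with it, and hepatocyte markers to 854 to 1267 CPM against 256 to 490 CPM, each with 1 of 8 rising. Fibroblast markers were at 3129 to 3586 CPM against 3812 to 4476 CPM, and the neutrophil and macrophage sums overlapped. The part of these cells in the result was not tested.

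Loss of Cflar in C362A Mlkl-/- intestines was compared within the C362A set. Serpina3f was called lower, at 47.7% of its mean with Cflar (log2 difference -1.07 ± 0.14), the 1 member of 7 (4.62% of genes), and without the second C362A Cflar-/- Mlkl-/- embryo it was -0.97 and not called. Saa3 (0.54 ± 0.19) lay above and Lcn2 (-0.58 ± 0.25) below all libraries with Cflar, without reaching the fold threshold. Neutrophil markers (196 to 269 against 364 to 446 CPM) and macrophage markers (546 to 687 against 810 to 844 CPM) were lower without Cflar, each with 1 called. Epithelial markers were lower too (3591 to 4939 against 5604 to 6864 CPM). So was the sum of the hepatocyte list (17.2 to 187 against 452 to 594 CPM), with 1 of 8 called higher and 1 lower. The part of these cells in the result was not tested. Serpina3g (-0.33 ± 0.15), Serpina3n (0.70 ± 0.37) and Saa1 (0.66 ± 0.50) overlapped.

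Ordered by mean level in the D387A set, Saa3 ran from 575 ± 166 CPM (SD, n = 3) in Casp1-/- Ifnar1-/- mutants to 337 ± 80.8 in D387A Cflar-/- Mlkl-/-, 130 ± 106 without Casp1 (69.1 without the third embryo), 9.97 ± 3.44 without Casp1 and Fadd, 1.08 ± 0.135 in D387A with Mlkl and 0.712 ± 0.264 CPM in controls. The first pair and the last pair of this order overlapped. Serpina3n had another order, with D387A Cflar-/- Mlkl-/- first (28.9 ± 6.80 CPM) and Casp1-/- Ifnar1-/- second (2.70 ± 0.161 CPM). Controls came next (0.457 ± 0.0911 CPM), and the groups with Fadd-/-, with D387A alone and with Casp1-/- followed between 0.220 and 0.124 CPM, each overlapping its neighbour. Serpina3g had D387A Cflar-/- Mlkl-/- (78.1 ± 11 CPM) above Casp1-/- Ifnar1-/- (20.6 ± 1.58 CPM) and Casp1-/- (13.8 ± 5.75 CPM), and these 2 overlapped through the third Casp1-/- embryo only, without which the mean was 10.5 CPM and they were separate. Serpina3g without Fadd and Casp1 (7.78 ± 1.20 CPM) was above the controls (3.47 ± 0.509 CPM) without overlap.

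Between genes, levels were compared per kilobase (RPKM). In the controls of the D387A set the 8 genes summed to a mean of 9.498 RPKM. The share of each gene was taken in each library and averaged, which gave 45.6% for Saa1, 23.8% for Serpina3g, 23.0% for Lcn2 and 3.20% for Saa3. Without the second control, which had 1 read of Saa1, these were 67.6%, 15.97%, 10.2% and 2.43%. In D387A Cflar-/- Mlkl-/- intestines the sum was 279 RPKM and Saa3 made up 46.0% of it, followed by Serpina3g at 15.8% and Saa1 at 14.7%. Without Casp1 the sum was 74.7 RPKM with 67.8% Saa3 (38.6 RPKM with 68.9% Saa3 without the third embryo), and without Casp1 and Ifnar1 it was 302 RPKM with 73.5% Saa3. C362A Mlkl-/- intestines reached a sum of 220 RPKM with another makeup, in which Serpina3g led with 30.6% and Saa3 had 23.9%. In the MEFs Serpina3g made up 80.2% in controls and 90.6% in mutants.

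In MEFs the serum amyloids and Lcn2 were at or near 0, and Serpina3f, Serpina3g and Serpina3n were detected. Saa1, Saa2 and Serpina3m had no read in any of the 6 cultures, which allows up to 0.142 CPM in the shallowest. Saa3 had 0, 2 and 1 reads in Mlkl-/- and 3, 12 and 4 reads in D387A Cflar-/- Mlkl-/- MEFs and was too low to be tested. Serpina3g was at 20.4, 17.0 and 14.1 CPM in Mlkl-/- and 51.8, 69.8 and 59.2 CPM in mutant MEFs. These groups did not overlap, and Serpina3g was the 1 member of 4 called (log2 difference 1.80 ± 0.15, beside 0.0711% of 15465 genes called higher), though not without the second Mlkl-/- culture (1.79). Macrophage markers were apart in the same cultures, at 82.0 to 112 CPM in Mlkl-/- and 175 to 225 CPM in mutant MEFs with 1 of 8 rising, as were hepatocyte markers (0.433 to 3.05 against 6.81 to 43.7 CPM, neither of the 2 tested called), and their part in the result was not tested. Serpina3f was at 0.402, 0.262 and 0.140 CPM against 1.09, 2.60 and 1.54 CPM, without overlap. Its log2 difference of 2.62 ± 0.47 was not called by edgeR and was called by DESeq2 at 2.65. Serpina3n (4.33, 3.67 and 3.18 CPM against 3.05, 5.24 and 6.57 CPM) and Lcn2 (at most 0.608 CPM) overlapped between the genotypes.

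Differences between these differences were taken from fits that joined 2 sets, with the MEF libraries normalized together with the D387A set there. The D387A Cflar-/- Mlkl-/- difference from control exceeded that in MEFs for Lcn2 (by 4.83 ± 1.23 on the log2 scale), Serpina3f (4.26 ± 0.74), Serpina3g (2.71 ± 0.30) and Serpina3n (5.58 ± 0.46). These 4 members passed the thresholds, beside 15.3% of genes in either direction. Limma-voom did not call Lcn2 (3.92), which had at most 13 reads in a MEF culture. The other 2 tested, Saa1 and Saa3, were too low in MEFs to be compared (0 reads and 0 to 12 reads). Between the intestine sets, Serpina3g differed less from its control in D387A Cflar-/- Mlkl-/- than in C362A Mlkl-/- (-1.53 ± 0.32), the 1 member of 7 past the thresholds (7.46% of genes). Against C362A Cflar-/- Mlkl-/- none of 7 passed (0.0764% of genes), with Serpina3g at -1.21 ± 0.32. The effect of Casp1 loss differed between the sets for Serpina3n (-2.69 ± 0.90, 1 of 7 members, beside 5.73% of genes). It was not called by limma-voom, was called in 4 of the 12 fits that left out a library, and rested on counts of 0 to 14 reads. Of the 6 other members, none had a difference past the thresholds, with Lcn2 at 1.61 ± 0.60 (called in 3 of the 12 fits) and Saa3 at 0.49 ± 0.48.

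Across the 30 intestine libraries, with CPM on a log2 scale centred within each set, Serpina3f and Serpina3g were the most alike pair of members (Pearson r = 0.97). Lcn2 and Serpina3n followed (0.92), then Saa3 and Serpina3g (0.90) and Lcn2 and Serpina3g (0.90). Saa1 was the least alike, with r from 0.61 (Serpina3f) to 0.68 (Saa3 and Lcn2). The 3 genes most like Saa3 were Nos2 (0.99), the inducible nitric oxide synthase, Nfkbia (0.99), the NF-kB inhibitor, and Birc3 (0.98), which encodes cIAP2. Those of Serpina3f were Cxcl9 (0.99), a chemokine gene, Slc15a3 (0.97) and Tmem173 (0.97), which encodes STING. For Serpina3g they were Adpgk, Hpse and Apobec3 (each 0.98), and for Serpina3n C1s1, Ifitm1 and Hsd11b1 (each 0.97). Lcn2 was most like Lpcat4, Inf2 and Plaur (each 0.97) and Saa1 most like Oit1 (0.94), Tspan1 (0.93) and Cyp2d34 (0.90). These libraries share genotypes, so the correlations describe the same few group differences many times.

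The other genes of the acute phase pathway were followed through lists of 106 genes, chosen with earlier results of these data known. In D387A Cflar-/- Mlkl-/- intestines 29 of the 85 that could be tested rose and 21 fell, beside 9.40% and 12.8% of all genes. In C362A Mlkl-/- intestines 34 of 90 rose and 15 fell, beside 10.4% and 7.55%. In D387A embryos with intact Mlkl none of 85 was called by edgeR, and 11 had an unadjusted p under 0.05.

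The cytokines that drive acute phase genes rose for the most part. In D387A Cflar-/- Mlkl-/- intestines 5 of 8 tested rose and Il18 fell (median log2 difference 2.49). Il1b rose from 0.616 to 32.8 CPM (log2 fold change 5.73 ± 0.37, edgeR adjusted p = 7.92e-10) and Tnf from 0.101 to 5.27 CPM (5.62 ± 0.75, adjusted p = 5.35e-06). Il6 rose from 0.0517 to 2.05 CPM (adjusted p = 2.25e-06). In C362A Mlkl-/- intestines 8 of 10 rose and none fell. Il36g (from 0.0123 to 4.499 CPM) and Ifng (from 0.0123 to 1.13 CPM) rose there from counts near 0, with adjusted p of 7.44e-07 and 9.17e-06 by edgeR. Tnf rose by 5.07 ± 0.41 (adjusted p = 2.31e-07), Il1b by 4.99 ± 0.33 (adjusted p = 3.33e-08) and Il6 by 4.03 ± 1.46 (adjusted p = 0.0381). Il22, a cytokine that acts on gut epithelium, had at most 4 reads in any library. Without Casp1, Il1b fell in the D387A set (log2 fold change -3.40 ± 0.30) and in the C362A set (-4.6 ± 0.33), with adjusted p of 1.06e-07 and 2.73e-07. Tnf fell in the C362A set (-1.46 ± 0.31, adjusted p = 0.00245), and in the D387A set its difference of -1.0 had an adjusted p of 0.0821, but was -2.37 and called without the third Casp1-/- embryo (edgeR adjusted p = 2.25e-06). Il6 fell in the D387A set (-3.83 ± 0.49, adjusted p = 1.45e-05), and its difference in the C362A set, -2.33, had an adjusted p of 0.147. With Ifnar1 lost as well, Il1b (1.13 ± 0.30, adjusted p = 0.0098), Tnf (1.59 ± 0.45, adjusted p = 0.0143) and Il6 (1.65 ± 0.59, adjusted p = 0.0458) rose, and with Fadd lost Il1b (-1.33 ± 0.35, adjusted p = 0.0144) and Tnf (-1.63 ± 0.54, adjusted p = 0.0462) fell. These 2 falls rested on the third Casp1-/- embryo, without which Il1b differed by -0.9 (adjusted p = 0.0623) and Tnf by -0.26 (adjusted p = 0.631), while the difference of Tnf on loss of Ifnar1 was then 2.96.

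Of the receptors for these cytokines, 3 of 15 rose and 2 fell in D387A Cflar-/- Mlkl-/- intestines (median 0.48), and 4 of 15 rose in C362A Mlkl-/-. Osmr, the oncostatin M receptor, led in both, with log2 fold changes of 2.25 ± 0.26 and 2.17 ± 0.16 (edgeR adjusted p = 8.41e-07 and 7.61e-08), followed by Il1r1 with 1.42 ± 0.16 and 1.5 ± 0.13. Il10rb, a chain of the IL-22 receptor, fell by 1.58 ± 0.10 in the D387A mutant (adjusted p = 4.04e-10). Among transcription factors and their feedback genes 7 of 14 rose in the D387A mutant and 6 of 14 in the C362A mutant, and Cebpa fell in both. Nfkbia (2.73 ± 0.25), Relb (2.56 ± 0.29) and Nfkb2 (2.33 ± 0.25) had the largest rises in the D387A mutant (adjusted p at most 6.49e-07). Relb (2.33 ± 0.15) and Nfkbia (2.18 ± 0.14) also rose in the C362A mutant (adjusted p at most 3.04e-08). Cebpd rose by 1.94 ± 0.21 and 1.05 ± 0.22 and Nfkbiz by 1.27 ± 0.13 and 1.22 ± 0.20. Socs3, the feedback inhibitor of STAT3, rose in the D387A mutant (1.44 ± 0.08, adjusted p = 1.38e-10). In the C362A mutant its difference of 0.84 ± 0.17 stayed under the fold threshold, as did those of Stat3 (0.54 and 0.51) and Cebpb (0.71 and 0.59) in both. Socs3 fell without Casp1 by 1.18 ± 0.08 and 1.46 ± 0.18 (adjusted p = 4.01e-09 and 2.72e-05).

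Other acute phase genes went in both directions. Of further positive acute phase proteins, 8 of 17 rose and 3 fell in the D387A mutant (median 0.44) and 8 of 18 rose and 4 fell in the C362A mutant. Il1rn, the IL-1 receptor antagonist, rose by 4.71 ± 0.54 and 5.59 ± 0.31 (edgeR adjusted p = 7.87e-07 and 6.47e-09). Cp, which encodes ceruloplasmin, rose by 4.06 ± 0.24 and 4.26 ± 0.18. Hp, which encodes the hemoglobin scavenger haptoglobin, rose by 3.90 ± 0.46 (5.19 without the second control) and 4.01 ± 0.35. In the D387A mutant the fibrinogen chains Fga (-3.79 ± 0.54) and Fgb (-3.13 ± 0.46) and Itih3 (-2.60 ± 0.62, or -1.45 without the second control) fell. In the C362A mutant Fgg, Mt1 (-2.71 ± 0.39) and Mt2 (-1.90 ± 0.56) had the largest falls. Hp fell again without Casp1, by 3.87 ± 0.45 and 4.29 ± 0.36 (adjusted p = 2.78e-06 and 1.03e-06). The negative acute phase proteins, which fall in the classical liver response, had 5 of 7 falling in the D387A mutant (median -2.94), where hepatocyte markers, 2 of which are in this list, fell as well, and 3 of 7 in the C362A mutant, with no rise. The call of Ahsg, which encodes fetuin-A, rested on 1 library. Ahsg ran from 1.05 to 96.3 CPM in the controls and from 0 to 9.60 CPM in the mutant, and its log2 difference of -3.36 ± 1.41 became 1.08 without the second control. Of the other falls in this list, Apoa2 (-2.21 ± 0.51) moved to -1.1 without that control and was still called. In D387A embryos with intact Mlkl none of the 7 was called, though Ahsg (-4.25 ± 1.52) and Alb (-4.23 ± 1.58) were at 1.87 and 5.31 CPM against control means of 33.1 and 94.7 CPM. These means rest largely on the second control. Without it Alb in D387A Cflar-/- Mlkl-/- went from -3.16 to 1.17, neither of them called. A value without that control is not given for D387A with intact Mlkl. Ttr, which encodes transthyretin, fell by 3.94 ± 0.19 in the D387A mutant (adjusted p = 2.47e-11). Of the Serpina1 genes, which encode alpha-1-antitrypsin, 3 of 5 fell in each mutant, with Serpina1a at -6.03 ± 0.44 and -3.35 ± 0.40, Serpina1e at -4.84 ± 0.24 and -2.38 ± 0.28 and Serpina1d at -1.70 ± 0.28 and -1.35 ± 0.36. Apcs, which encodes serum amyloid P and is no relative of the serum amyloid A genes, fell by 5.98 ± 0.54 and 5.42 ± 0.71 (adjusted p = 5.04e-08 and 2.44e-05). Saa4, the constitutive serum amyloid, had at most 10 reads in any library and Crp at most 28.

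**Figure D4:**
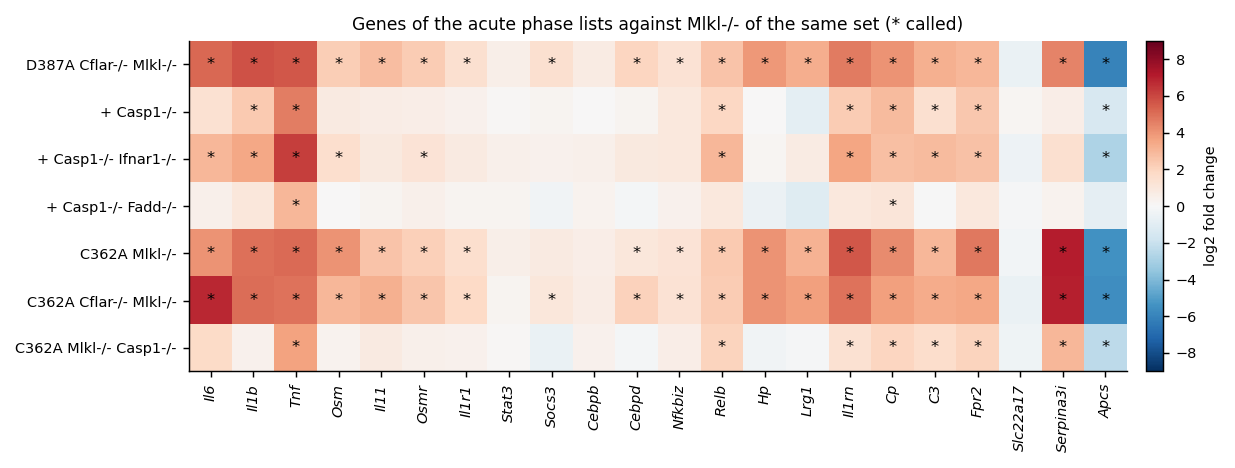
Log2 fold change of 22 genes of the acute phase lists in 7 mutant genotypes of the intestine against the Mlkl-/- controls of the same set, from blue (lower) to red (higher), with an asterisk for genes past the thresholds. Il1b, Tnf and Il1rn are red in D387A Cflar-/- Mlkl-/- (5.73, 5.62 and 4.71) and in C362A Mlkl-/- intestines (4.99, 5.07 and 5.59), and Apcs is blue in both (-5.98 and -5.42).

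Among the remaining genes of the Serpina3 cluster, Serpina3i was tested in both sets. It rose from 0.0670 to 1.62 CPM in D387A Cflar-/- Mlkl-/- (edgeR adjusted p = 0.000128) and from 0.0115 to 2.35 CPM in C362A Mlkl-/- intestines (adjusted p = 4.25e-07), and fell without Casp1 by 3.85 ± 0.73 and 4.06 ± 0.44 (adjusted p = 0.000333 and 9.91e-06). Serpina3h, which shares sequence with Serpina3g, rose in the C362A mutant to 0.623 CPM (adjusted p = 0.00011). Serpina3a had no read in the 3 C362A Mlkl-/- libraries and 0.430 CPM in controls (adjusted p = 0.000329). Of the proteases that SERPINA3 proteins inhibit, Gzmb, which encodes granzyme B, rose by 4.82 ± 0.46 and 5.49 ± 0.27 (adjusted p = 1.07e-07 and 1.84e-09). It fell without Casp1 by 4.73 ± 0.45 and 4.49 ± 0.25 (adjusted p = 2.77e-07 and 4.67e-08). The cathepsins Ctsl (-1.66 ± 0.14) and Ctsb (-1.42 ± 0.15) fell in the D387A mutant, and in the C362A mutant Ctss rose (1.72 ± 0.18). Of the receptors and partners of serum amyloid A and lipocalin-2, 4 of 10 rose in each mutant, and 3 and 2 fell. Fpr2, a receptor for serum amyloid A on leukocytes, rose by 3.00 ± 0.31 and 4.76 ± 0.32 (adjusted p = 2.25e-07 and 3.05e-08). Slc22a17, a receptor for lipocalin-2, differed by -0.58 ± 0.14 and -0.28 ± 0.18 and was not called. Tlr2 and Tlr4, which also bind serum amyloid A, rose in both, and Lrp2, a receptor that takes up lipocalin-2, fell by 2.85 ± 0.24 and 2.11 ± 0.35.

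Over all lists, loss of Casp1 lowered 18 of 85 genes in the D387A set (4.51% of all genes) and raised 16 (8.88% of all genes), or 24 and 17 without the third Casp1-/- embryo. Its loss in the C362A set lowered 28 of 90 (5.72%) and raised 8 (5.60%). The genes that rose included Apcs (4.55 ± 0.57 and 3.03 ± 0.71, edgeR adjusted p = 5.18e-06 and 0.00482) and Serpina1e (3.84 ± 0.24 and 1.82 ± 0.28). Epithelial sums were higher without Casp1 too, at 5880 to 7632 against 4556 to 4914 CPM (D387A set) and 12060 to 14290 against 5604 to 6864 CPM (C362A set). Sums of the hepatocyte list were at 256 to 490 against 53.0 to 74.2 CPM and 744 to 1527 against 452 to 594 CPM. The part of these cells was not tested. Loss of Ifnar1 raised 10 of 85 (3.28%) and lowered 9 (2.03%), or 18 and 9 without the third Casp1-/- embryo. Loss of Fadd lowered 9 (0.877%) and raised 4 (2.56%), or 5 and 7 without the third Casp1-/- embryo. Loss of Cflar in the C362A set lowered 12 of 90 (4.62%) and raised 6 (1.45%). In the MEFs 4 of 63 tested genes rose and none fell, namely Mmp9 (3.37 ± 0.29, adjusted p = 0.00692), C3 (3.05 ± 0.30, adjusted p = 0.0104), Relb (1.17 ± 0.11, adjusted p = 0.00864) and Nfkbia (1.12 ± 0.07, adjusted p = 0.00122). With the culture number as a block these 4 were called again, and Alb (3.42 without the block, not called) was called at 3.56 (adjusted p = 0.0128).

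Markers of several other cell types moved with the members. The 10 neutrophil markers summed to 13.05 to 32.1 CPM in the D387A set controls and 43.8 to 141 CPM in D387A Cflar-/- Mlkl-/- intestines, with 5 of 9 tested rising and 1 falling. The sums went in the C362A set from 18.3 to 37.9 CPM in controls to 364 to 446 CPM in C362A Mlkl-/-, with 6 of 9 rising, and to 95.4 to 145 CPM without Casp1. Sums of the 2 sets were normalized separately. Lcn2 is itself a neutrophil granule gene. The third D387A Cflar-/- Mlkl-/- Casp1-/- embryo, which had the most Saa3, Lcn2 and Saa1 of its group, had 73.1 CPM of neutrophil markers against 16.9 and 22.0 CPM, and 785 CPM of macrophage markers against 493 and 474 CPM. Macrophage markers rose in the C362A set from 412 to 487 CPM in controls to 810 to 844 CPM in C362A Mlkl-/-, with 5 of 8 called higher, and were at 631 to 685 CPM without Casp1. Their sum in D387A Cflar-/- Mlkl-/- intestines, 435 to 588 CPM, overlapped the controls (454 to 490 CPM), with 2 of 8 called higher and 1 lower. T and NK cell markers summed to at most 9.12 CPM in the D387A set controls, 16.7 to 27.1 CPM in the D387A mutant, 43.4 to 45.03 CPM in the C362A mutant and 8.34 CPM or less in D387A Cflar-/- Mlkl-/- Casp1-/- intestines. The sum of the hepatocyte list moved the other way. It was 848 to 1540 CPM in the D387A set controls and 53.0 to 74.2 CPM in the mutant, with 6 of 8 falling. In the C362A set it was 1124 to 1366 CPM in controls and 452 to 594 CPM in C362A Mlkl-/-, with 1 of 8 rising and 4 falling. In C362A Cflar-/- Mlkl-/- it was 17.2 to 187 CPM. Alb and Ahsg did not follow it there, at 0.469 and 0.156 CPM in C362A Mlkl-/- and 24.3 and 7.73 CPM in C362A Cflar-/- Mlkl-/-. The sum thus rests mainly on other genes of the list and does not measure hepatocytes alone. Epithelial markers summed to 10020 to 10660 CPM in the D387A set controls and 4556 to 4914 CPM in D387A Cflar-/- Mlkl-/-, with 2 of 8 called higher and 1 lower. In the C362A set they summed to 8430 to 12080 CPM in controls and 5604 to 6864 CPM in C362A Mlkl-/-, with 1 of 8 called lower. Across the 30 intestines, on the scale used for the members, the r of the T and NK cell sum with a member ran from 0.61 (Saa1) to 0.92 (Serpina3f). It ran from 0.59 (Saa1) to 0.87 (Serpina3g) for the neutrophil sum and from 0.29 (Serpina3n) to 0.68 (Saa3) for the macrophage sum. The hepatocyte sum had r from -0.85 (Serpina3n) to -0.65 (Saa1) and the epithelial sum from -0.83 (Serpina3n) to -0.46 (Saa1), over the same few genotypes. The part of these cell types in the levels of the members was not tested.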

How the data were processed

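RNA was sequenced from 36 samples in 12 groups of 3 (30 E18.5 intestines and 6 MEF cultures), as single-end reads of 50 bases. The authors aligned reads with GSNAP to GRCm38 and kept uniquely aligned reads, per the study's methods; the counter, the annotation release and the use of strand are not given in the sources used here, and the labels and the methods name different library kits. The deposited files hold raw read counts per gene, the RPKM values the authors derived from them and the gene width in bases. Counts were used for tests, and counts and widths for CPM and RPKM scaled by TMM; the deposited RPKM column was not used for results.

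Each set (D387A intestines, C362A intestines, MEFs) was fitted on its own with all its groups in edgeR 4.0.16 (R 4.3.3), using filterByExpr (minimum count 10, minimum total 15), TMM, a prior count of 0.125 and the quasi-likelihood F test with Benjamini-Hochberg adjustment over all genes tested (18360, 19408 and 15465). A gene was called at an adjusted p under 0.05 and an absolute log2 fold change above 1, and SE is the log2 fold change divided by the root of F. Differences between sets came from interaction terms on the libraries of both sets. Groups, sets and replicate numbers came from the labels. The titles used for the D387A set controls and the mutant MEFs do not hold the full genotype, and the genotype given is that of the study. Intestines were of separate embryos, and p-values measure the spread between these samples only. Intervals of depth and floors cover counting error only. The method was tested on simulated data.

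The 8 members and the lists were chosen with earlier results of these data known. All members were named, and from each list the 3 called genes with the largest rise and the 3 with the largest fall in the D387A Cflar-/- Mlkl-/- and C362A Mlkl-/- comparisons were candidates for naming (1 is not reported here), with genes of a role beside a member and the 3 genes of highest correlation with each member on log2(CPM + 0.5). The tests were repeated with DESeq2 1.42.0 and limma-voom (limma 3.58.1), with relative log expression in place of TMM, without the filter or with a filter at a mean of 50 reads, with 2 as the prior count, on the compared groups alone, blocked by replicate number and without each library in turn. Leaving out libraries in the differences between sets, recounting the lists under these alternatives, means without a library that stands apart, and list genes with the MEF block or without the third D387A Cflar-/- Mlkl-/- Casp1-/- embryo or the second control of that set, were added after seeing the data. No replicate pair of a group agreed within sampling noise. Same-numbered libraries deviated together in the MEFs (correlations of 0.21 to 0.35 in 3 pairs, and -0.23 to -0.07 between other numbers). The cultures may thus be paired there, but 3 pairs cannot settle it. The MEF values given come from the fit without the block. With the block the number of members called stayed at 1, and that of list genes went from 4 to 5. In the intestines they did not, with correlations of -0.31 to 0.27 (D387A set) and -0.49 to 0.33 (C362A set).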

Additional observations from a re-analysis of the deposited data

Results flagged for a closer look

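Differences between groups in the size of the same contrast passed the thresholds for 6 values of the members, which are given as a description because the members were chosen with earlier results known. The D387A Cflar-/- Mlkl-/- difference from control was larger in the intestine than in MEFs by 4.83 ± 1.23 on the log2 scale for Lcn2, 4.26 ± 0.74 for Serpina3f, 2.71 ± 0.30 for Serpina3g and 5.58 ± 0.46 for Serpina3n. These 4 were called in each of the 12 fits that left out a library, and limma-voom did not call Lcn2 (3.92), which had at most 0.608 CPM in any MEF culture. The Serpina3g difference from control was smaller in D387A Cflar-/- Mlkl-/- than in C362A Mlkl-/- intestines by a log2 value of -1.53 ± 0.32, and ranged from -1.66 to -1.44 without a library. The change of Serpina3n on loss of Casp1 differed between the D387A and C362A sets by -2.69 ± 0.90, with -2.14 and no call under limma-voom and a range of -3.50 to -1.70 without a library. No group had enough samples to test for a single sample apart from its group.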

How the results depend on the processing

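No called fold of a member turned its direction under the other settings or with a library left out. Of 87 folds, 4 that were not called changed sign under another setting (Lcn2 in MEFs, -0.30 and up to 0.66; Serpina3n in C362A Mlkl-/- Casp1-/- against control, 0.58 and down to -0.35; Saa2 on loss of Cflar, 0.56 and down to -0.08; Serpina3f in D387A with intact Mlkl, -0.17 and up to 0.13), and 11 did with a library left out. Of 675 folds under other settings 666 stayed within 1 SE, as did 464 of 522 with a library left out, and 80 of 84 mean levels stayed within 1 SD with unscaled library totals. The number of members called in D387A Cflar-/- Mlkl-/- Casp1-/- against control went from 5 to 3 with limma-voom and to 3 with only the 2 groups fitted, that on loss of Ifnar1 from 3 to 1 with only the 2 groups, that on loss of Fadd from 1 to 2 with no filter, and that in MEFs from 1 to 2 with DESeq2 and to 2 with no filter. The difference between sets on loss of Casp1 had 1 member called, and 0 with limma-voom. Saa1 gained a call on loss of Ifnar1 with limma-voom (3.01) and with no filter (2.27). On loss of Casp1 in the C362A set it gained a call with limma-voom (-1.44), no filter (-1.18) and only the 2 groups (-1.17). With no filter Saa1 was also called on loss of Casp1 in the D387A set (-1.93) and in C362A Mlkl-/- Casp1-/- against control (1.34). Saa2 gained a call in C362A Mlkl-/- against control with limma-voom (2.82). The cause of these changes was not tested. With each library left out in turn, members called numbered 5 to 6 in D387A Cflar-/- Mlkl-/-, 0 in D387A with intact Mlkl, 3 to 4 with Casp1-/-, 6 with Casp1-/- Ifnar1-/- and 3 with Casp1-/- Fadd-/- against control. They numbered 5 to 6 on loss of Casp1, 2 to 4 of Ifnar1 and 1 to 2 of Fadd. For C362A they numbered 6 to 7 in C362A Mlkl-/- and in C362A Cflar-/- Mlkl-/- and 3 to 4 with Casp1-/- against control, 5 to 6 on loss of Casp1 and 0 to 1 of Cflar, and in MEFs 0 to 1. Differences between sets had 1 member called against C362A Mlkl-/-, 0 to 1 against C362A Cflar-/- Mlkl-/-, 0 to 1 on loss of Casp1 and 4 against MEFs. List genes called went from 49 to 54 (D387A Cflar-/- Mlkl-/-, 50 as reported) and from 43 to 50 (C362A Mlkl-/-, 49 as reported). With the replicate number as a block, Lcn2 in D387A Cflar-/- Mlkl-/- Casp1-/- against control lost its call at a log2 difference of 1.5, and no other member's call changed. Counts under 20 reads limit Saa2, Serpina3m and the Casp1-/- levels of Serpina3n, where a few reads set the fold.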
